A study of Mus musculus with 16 samples.

Results

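Ribosome footprints of cerebral cortex were compared between Fmr1 knockout and wild-type (WT) mice, in 4 of the 16 libraries of the series. These are the footprint libraries whose titles name the Fmr1 knockout (replicates 1 and 2) and the WT (replicates 1 and 2). The other 12 libraries are RNA-seq of the same genotypes and both assays of a Cpeb1 knockout and of an Fmr1 and Cpeb1 double knockout, each in 2 libraries. The strain label of every group was FVB.129P2-/Pde6b+ Tyr c-ch //AntJ, and tissue was taken at postnatal day 28 to 35. Cortex was homogenized with cycloheximide and harringtonine, nuclei and debris were spun down, and the cytoplasmic lysate was divided between ribosome profiling and RNA-seq. For profiling it was digested with RNase T1 and RNase A, and monosomes were collected from sucrose gradients. The labels name neither the Fmr1 allele nor the sex, and they do not say how many animals went into a library. The p-values therefore measure the spread between libraries, which may be technical.

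Fmr1 encodes FMRP, an RNA-binding protein of neurons that binds coding regions of many long brain mRNAs, associates with polyribosomes and is best known as a brake on translation. Its loss underlies fragile X syndrome. Cpeb1 encodes a protein that binds the cytoplasmic polyadenylation element of mRNAs and regulates their tail length and translation. A footprint is the stretch of mRNA that a ribosome shields from RNase, so a gene's footprint count depends both on how much of its mRNA is present and on how many ribosomes sit on each copy. The comparison asked which genes carry more or fewer footprints once FMRP is lost.

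The WT footprint libraries held 24973757 and 21478167 estimated counts and the Fmr1 knockout libraries 19679786 and 22773628, over 20436 listed genes. Of these genes, 13774 passed the filter on low counts and were tested. Levels are given as CPM, counts per 1000000 scaled with TMM factors, in the order replicate 1 and replicate 2. A change per replicate compares the Fmr1 knockout and WT libraries of the same number. These numbers are not shown to pair the samples. A gene is called when its Benjamini-Hochberg adjusted p is under 0.05 in edgeR's quasi-likelihood test. Footprint changes were small for most genes, with a median size of 0.090 on the log2 scale and a median standard error of 0.12.

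Few genes passed the test: 8 of 13774 genes were called, 4 higher and 4 lower (percent called 0.0581 in all and 0.029 in each direction; edgeR). The called genes were Fmr1 itself, Rint1, Dnah6, B2m, Pla2g4e, Gm5150, Rec8 and Adi1. At an unadjusted p under 0.05 there were 701 genes, which is 5.09% of those tested, 331 higher (2.4%) and 370 lower (2.69%). The number of calls depended on which libraries entered the fit. It was 46 without WT replicate 1, 38 without WT replicate 2, 7 without Fmr1 knockout replicate 1 and 5 without Fmr1 knockout replicate 2, where the remaining library of a genotype is assumed to vary like the other genotypes. The replicate number entered the fit as a block although the labels name no batch, and without it 6 genes were called, Rec8 and Dnah6 not among them. Fitting these 4 libraries alone gave 43 genes, DESeq2 gave 15, and both sets held all 8. With at least 10 counts required in every library 6 genes were called, because Gm5150 and Rec8, near 0 in WT, were then not tested.

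**Figure D1:**
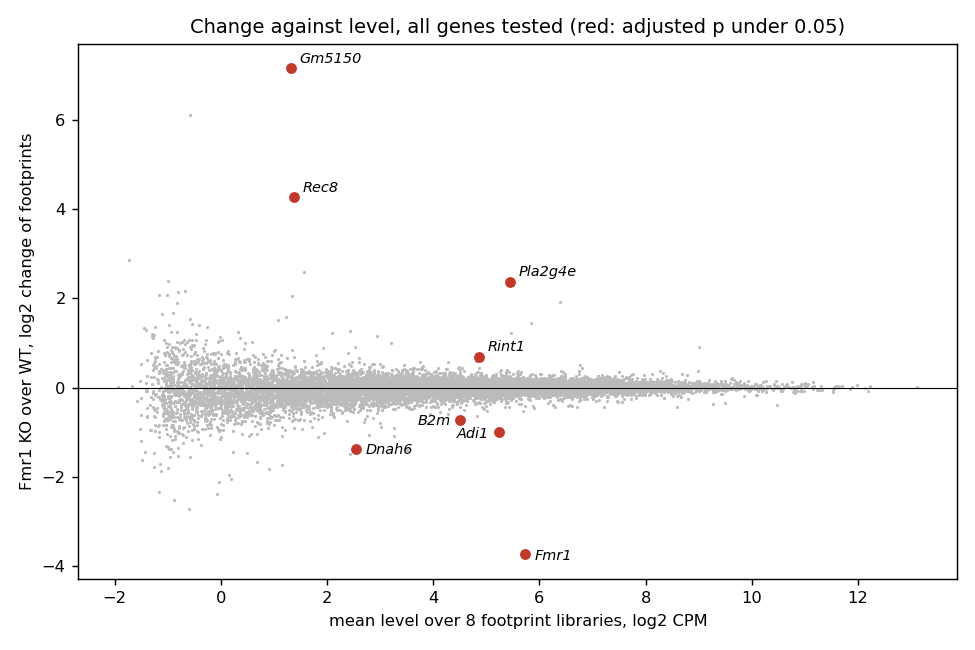
Log2 footprint change of the Fmr1 knockout over WT (vertical axis) against the mean level over the 8 footprint libraries in log2 CPM (horizontal axis), 1 grey point per gene tested. The 8 called genes are in red and named, and the cloud of other genes narrows around 0 as the level rises.

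The targeted gene checked the labels. Fmr1 (chr X, 68678536 to 68717963, GRCm38) had 95.7 and 97.3 CPM of footprints in WT and 8.69 and 5.87 in the Fmr1 knockout. Its log2 change was -3.74 ± 0.132 (SE; adjusted p = 1.13e-08, edgeR), which left 7.54% of the WT level. Fmr1 RNA held 109 and 91.3 CPM in WT and 25.9 and 18.4 in the knockout, so footprints were lost more deeply than RNA, with a log2 difference of -1.54 between the 2 assays (adjusted p = 0.00609, edgeR). That comparison of assays, in 1 fit of footprint and RNA libraries, called 2 of 13027 genes (percent called 0.0154), Fmr1 and Adi1, and called 0 without the replicate block (738 at an unadjusted p under 0.05; edgeR). It also called neither of them without WT replicate 1 or 2 or without Fmr1 knockout replicate 2. In RNA alone Fmr1 was the only call among 13287 genes (percent called 0.00753; edgeR). Cpeb1, which is intact in both genotypes, had 35.5 and 33.4 CPM in WT and 34.4 and 36.7 in the Fmr1 knockout.

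The double knockout and the Cpeb1 knockout give a second view of Fmr1 loss, in 4 footprint libraries that do not enter the fold changes against WT. All 8 libraries were fitted together, so both comparisons share the filter and the estimate of spread, and their calls are not independent. There 772 of 13774 genes were called (percent called 5.6; 3 for higher and 2.61 for lower genes; edgeR). This count was 207 without the replicate block, 81 and 10 without double knockout replicates 1 and 2, and 5 and 18 without Cpeb1 knockout replicates 1 and 2. A called gene can be read in both settings, with and without Cpeb1. Besides Fmr1, Rint1 and Dnah6 were called in the same direction in both. The call of Dnah6 in the Fmr1 knockout against WT was lost without the replicate block and without either Fmr1 knockout library, and that of Rint1 without either Fmr1 knockout library.

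Rint1 encodes a tethering factor of membrane traffic between the Golgi apparatus and the endoplasmic reticulum (chr5, 23787698 to 23823584). Its footprints were at 23.3 and 23.3 CPM in WT and 35.6 and 39.5 in the Fmr1 knockout. With Cpeb1 absent they were at 23.6 and 23.2 CPM with Fmr1 intact and 32.7 and 31.6 without it. All 4 libraries without Fmr1 thus stood above all 4 with it. The log2 change was 0.69 ± 0.096 with Cpeb1 present (1.61-fold; adjusted p = 0.0158) and 0.46 ± 0.097 with Cpeb1 absent (adjusted p = 0.0237; edgeR). Its RNA, at 45.3 and 43.1 CPM in WT and 45.3 and 49.2 in the Fmr1 knockout, had a log2 difference of 0.092 ± 0.12 (adjusted p = 0.832, edgeR).

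Dnah6 encodes a heavy chain of axonemal dynein, the motor of motile cilia (chr6, 73017603 to 73222227). Its footprints were at 7.27 and 9.45 CPM in WT and 2.86 and 3.59 in the Fmr1 knockout, while the Cpeb1 knockout held 7.18 and 6.83 CPM and the double knockout 3.24 and 5.21. The groups did not overlap in either setting. The log2 change was -1.37 ± 0.198 against WT (adjusted p = 0.0217) and -0.76 ± 0.197 against the Cpeb1 knockout (adjusted p = 0.0436; edgeR). Dnah6 RNA was uneven between replicates, at 3.50 and 30.7 CPM in WT and 25.4 and 2.80 in the Fmr1 knockout, and the genotypes overlapped.

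B2m, the light chain of class I major histocompatibility molecules (chr2, 122147687 to 122153082), fell to 60.3% of WT. Its footprints were at 30.3 and 33.8 CPM in WT and 19.1 and 19.6 in the Fmr1 knockout, a log2 change of -0.73 ± 0.101 (adjusted p = 0.0158, edgeR). The Cpeb1 knockout held 22.0 and 21.6 CPM and the double knockout 17.2 and 16.7, a log2 difference of -0.36 ± 0.105 that was not called (adjusted p = 0.0595, edgeR). WT stood above each of the other 6 libraries. B2m RNA went the other way, with 11.9 and 7.40 CPM in WT and 13.6 and 13.9 in the Fmr1 knockout. Its RNA log2 difference was 0.45 ± 0.34 and was not called (adjusted p = 0.697, edgeR). The B2m call against WT was lost without either Fmr1 knockout library.

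The other 4 called genes behaved differently where Cpeb1 was also lost. For each of them the difference between both settings was also called (9 of 13774 genes, percent called 0.0653; edgeR). That test uses the same Fmr1 knockout and WT libraries by which these genes were called, so both calls are not independent. Pla2g4e encodes a calcium-activated N-acyltransferase that makes precursors of endocannabinoid-like lipids (chr2, 120166412 to 120245630). Its footprints were at 10.7 and 9.91 CPM in WT and 51.6 and 56.1 in the Fmr1 knockout, a 5.2-fold rise (log2 change 2.38 ± 0.114; adjusted p = 2.51e-07, edgeR). The Cpeb1 knockout held 48.9 and 61.3 CPM and the double knockout 54.4 and 55.6. WT was thus the genotype that stood apart, and removing Fmr1 on top of Cpeb1 gave a log2 difference of 0.0035 ± 0.10 (adjusted p = 0.988, edgeR). Pla2g4e RNA did not follow, with 37.6 and 52.1 CPM in WT and 30.0 and 32.7 in the Fmr1 knockout (log2 difference -0.52 ± 0.52, adjusted p = 0.769, edgeR).

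Gm5150, a provisional gene model grouped here with the SIRP family of immunoglobulin-like receptors (chr3, 15946871 to 16006371), had 1 and 0 footprint counts in WT and 81 and 82 in the Fmr1 knockout. Scaled for depth, the ratio was 180, with a 95% counting interval of 31.8 to 7140 that covers counting error only. Both libraries of the Cpeb1 knockout (3.0 and 2.55 CPM) and of the double knockout (3.15 and 3.23 CPM) also held the gene, so that WT was again apart. Gm5150 passed the filter on low counts only through the knockout genotypes. It was not tested when at least 10 counts were required in every library. Its RNA was under the filter, with 2 and 7 counts in WT and 1 and 4 in the Fmr1 knockout. Assignment of footprints between Gm5150 and related SIRP genes is uncertain. The family member Sirpa was at 230 and 241 CPM in WT and 209 and 217 in the Fmr1 knockout, and its ligand gene Cd47 at 168 and 167 against 173 and 189, neither of them called (log2 differences -0.14 and 0.11).

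Rec8, the meiotic kleisin subunit of cohesin (chr14, 55618002 to 55625395), had 9 and 1 counts in WT and 57 and 137 in the Fmr1 knockout, a log2 change of 4.28 ± 0.533 (adjusted p = 0.00716, edgeR). The Cpeb1 knockout held 2.36 and 5.78 CPM and the double knockout 1.02 and 0.99, so with Cpeb1 absent Rec8 was lower without Fmr1 (log2 change -1.90, adjusted p = 0.026, edgeR). In the Fmr1 knockout against WT its log2 change was 6.83 without WT replicate 1 and 3.04 without WT replicate 2, and its call was lost without the replicate block and without Fmr1 knockout replicate 2. Rec8 passed the filter on low counts only through the knockout genotypes. It was not tested when at least 10 counts were required in every library. Rec8 RNA was under the filter and went the other way, with 8 and 40 counts in WT and 0 and 1 in the Fmr1 knockout. In footprints the other 14 tested cohesin genes had 0 calls, and 10 of the 15 had a log2 difference below 0.

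Adi1, an enzyme of the methionine salvage pathway (chr12, 28675207 to 28682175), had 46.8 and 56.8 CPM in WT and 27.2 and 24.7 in the Fmr1 knockout. This was a log2 change of -1.0 ± 0.122 (adjusted p = 0.00716, edgeR). The Cpeb1 knockout was also low, at 33.7 and 27.5 CPM, and the double knockout lay between at 42.6 and 40.4. Adi1 RNA went the opposite way, with 12.6 and 9.56 CPM in WT and 21 and 19.8 in the Fmr1 knockout, a log2 difference of 0.88 that was not called on its own (adjusted p = 0.526, edgeR). Footprints relative to RNA were lower by a log2 difference of -1.85 (adjusted p = 0.00609, edgeR), subject to the limits given for this comparison. The footprint call of Adi1 was lost without Fmr1 knockout replicate 2 (adjusted p = 0.133, edgeR).

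**Figure D2:**
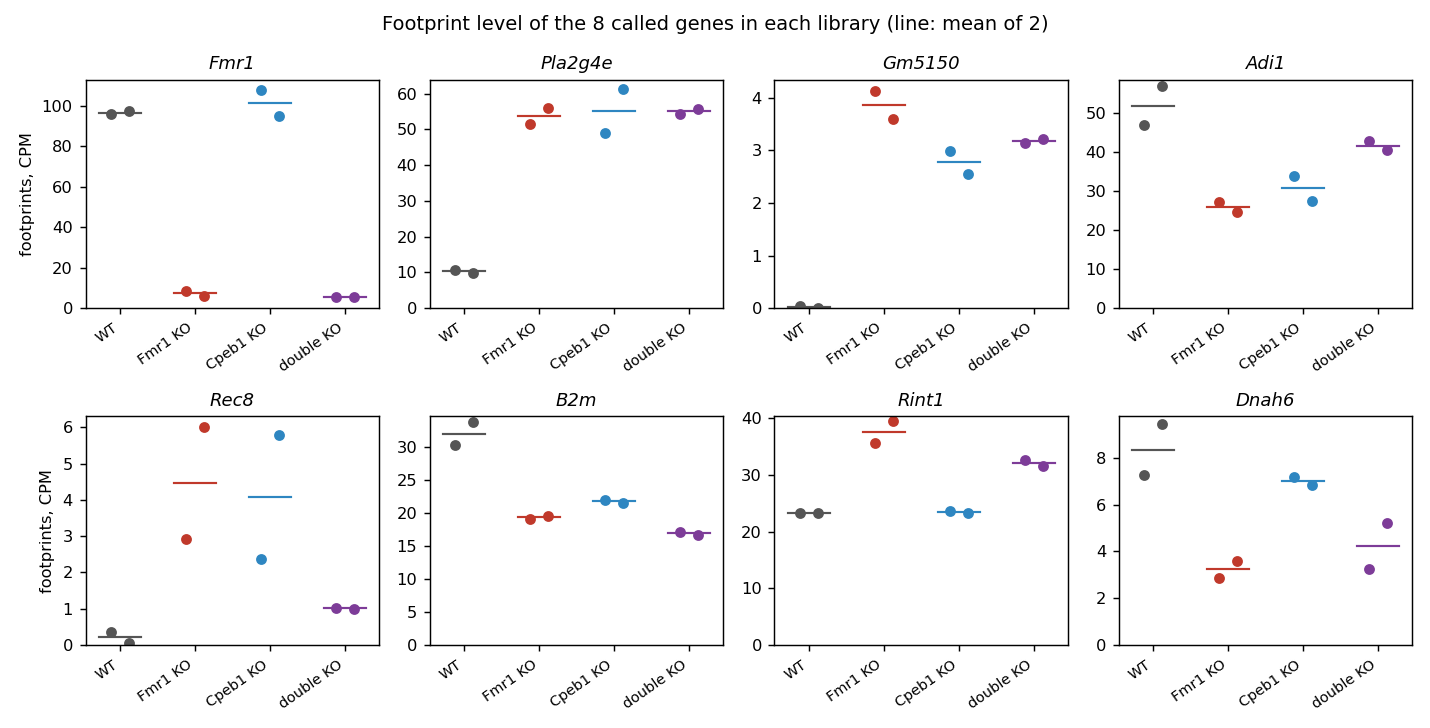
Footprint level in CPM (vertical axes, from 0) of the 8 called genes in each genotype, with 1 point per library and a line at the mean of 2. Fmr1, Rint1 and Dnah6 separate the libraries without Fmr1 from those with it, whereas for Pla2g4e and Gm5150 the WT libraries stand apart from all others.

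Below the threshold, 8 higher and 8 lower genes with at least 200 counts and the same direction in both replicates came next. The genes with lower footprints kept their sign where Cpeb1 was absent in 8 of 8 cases. Among them Pls3, an actin-bundling protein (chrX, 75785653 to 75875182), had 443 and 443 CPM in WT and 340 and 312 in the Fmr1 knockout. The Cpeb1 knockout held 506 and 432 CPM and the double knockout 297 and 294. Every library without Fmr1 was therefore below every library with it; the log2 difference was -0.44 ± 0.073 against WT, not called (adjusted p = 0.0668), and -0.66 against the Cpeb1 knockout, called (adjusted p = 0.00243; edgeR). Pls3 lies on the same chromosome as Fmr1, in the stretch from 70 to 80 Mb described below, and its RNA had a log2 difference of -0.28.

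Tspan2, a tetraspanin of myelinating cells, was at 68.5 and 68.5 CPM in WT against 51.5 and 48.5 without Fmr1, and with Cpeb1 absent at 74.0 and 61.9 against 53.3 and 47.6. The order of libraries was that of Pls3. Tspan2 was called in the double against the Cpeb1 knockout (adjusted p = 0.0241) and not in the Fmr1 knockout against WT (adjusted p = 0.197; edgeR). Dicer1, the nuclease that makes mature microRNAs, had a log2 difference of -0.50 ± 0.101 against WT and -0.36 against the Cpeb1 knockout, with a call in neither (adjusted p = 0.201 and 0.0572, edgeR). The lower genes also included the myelin gene Mog, the hydrolase gene Abhd1, Arl3, a small GTPase of ciliary traffic, and Ralgapa2, a regulator of Ral GTPases.

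Of the genes with higher footprints, 5 of 8 kept their sign where Cpeb1 was absent. Cbx6, a chromodomain subunit of Polycomb complexes, was at 286 and 273 CPM in WT and 345 and 357 in the Fmr1 knockout, and with Cpeb1 absent at 260 and 309 against 362 and 378. The neuropeptide gene Npy was at 74.7 and 80.3 CPM in WT and 95.2 and 102 in the Fmr1 knockout, and at 71.4 and 81.7 against 97.4 and 90.9 with Cpeb1 absent. Libraries without Fmr1 were the higher ones for both genes; Cbx6 was called with Cpeb1 absent (adjusted p = 0.0227) and not with it present (adjusted p = 0.387; edgeR), and Npy was called in neither. The clock gene Per1, at 69.8 and 84.7 CPM in WT and 103 and 117 in the Fmr1 knockout, also kept its sign, with log2 differences of 0.51 and 0.40. Scg5, the chaperone of a prohormone convertase, and Dph7, an enzyme of diphthamide synthesis on elongation factor 2, followed the other pattern. Scg5 had 380 and 237 CPM in WT and 530 and 621 in the Fmr1 knockout, and Dph7 had 19.7 and 21.9 against 31.9 and 30.6 (log2 differences 0.91 and 0.59, adjusted p = 0.0668 for each, edgeR). In the Cpeb1 and double knockouts Scg5 lay between 545 and 606 CPM and Dph7 between 28.8 and 31.1, so WT was the low genotype for both. Kidins220, a scaffold of neurotrophin receptors, had a log2 difference of 0.31 against WT and -0.35 against the Cpeb1 knockout, and this difference between the settings was called (adjusted p = 0.0459, edgeR).

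**Figure D3:**
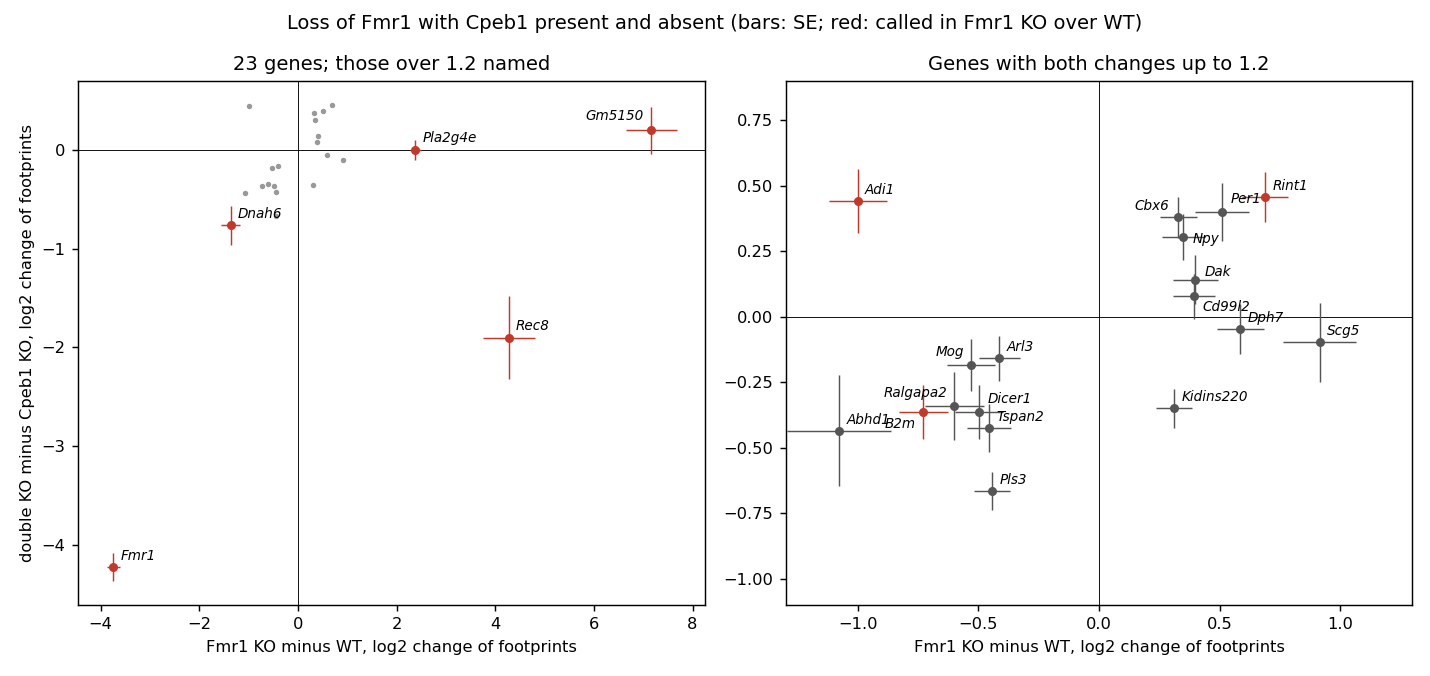
Log2 footprint change (± SE) of Fmr1 loss with Cpeb1 present (horizontal axis) and absent (vertical axis) for the 8 called genes (red) and 15 of the 16 genes that came next (grey), the right panel enlarging the centre. The next lower genes drawn all lie in the lower left, while Pla2g4e and Gm5150 lie close to the horizontal line at 0 and Rec8 and Adi1 lie on opposite sides of it from their change against WT.

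Over all genes the changes in the 2 settings were only loosely related. Of the 700 genes other than Fmr1 with an unadjusted p under 0.05 against WT, 454 (64.9%) had the same sign in the double against the Cpeb1 knockout, beside 56.1% of all tested genes. Changes correlated across genes at r = 0.072 (13772 genes, which are not independent replicates, and which share library depth within each comparison). Within the Fmr1 knockout against WT, the changes of replicates 1 and 2 correlated at r = 0.0026 across genes, and the footprint change correlated with the RNA change at r = 0.032 (13025 genes).

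FMRP's own family and partners gave no call besides Fmr1. The paralogs Fxr1 and Fxr2 had log2 differences of 0.059 and 0.13, and Cyfip1 and Cyfip2, partners of FMRP that link it to actin regulation, -0.10 and -0.0041. With Cpeb1 absent Fxr2 was called higher, with a log2 change of 0.36 (adjusted p = 0.0243, edgeR). Of the 26 genes on this list 12 had a log2 difference above 0 and 14 below, and the median was -0.016, beside 0.0039 for all genes. Besides Fmr1, Dicer1 and the WAVE complex subunit Nckap1 had an unadjusted p under 0.05, both lower, Nckap1 with 619 and 924 CPM in WT and 607 and 585 in the Fmr1 knockout. Only WT replicate 2 was high for Nckap1.

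Footprints of mRNAs known to bind FMRP in brain leaned slightly higher. Of 112 genes on the list, Scn2a, Adgrb1 and Adgrb2 were not found under these symbols. The other 109 were tested, and 0 were called. Their median log2 difference was 0.039, with 70 above 0 and 39 below, beside 0.0039 for all genes, of which 51.4% were above 0. The medians of the replicates were -0.015 and 0.092, and the list median was 0.0047 without Fmr1 knockout replicate 2, 0.076 without Fmr1 knockout replicate 1, 0.069 without WT replicate 1 and 0.018 without WT replicate 2. Both Fmr1 knockout libraries were above both WT libraries for 25 of the 109 (15.6% of all genes) and below for 7 (15.1% of all genes). At an unadjusted p under 0.05 there were 5 genes, all higher (4.59% of the list, beside 5.09% of all genes): Grin1, Apc2, Shank3, Myo18a and Slc8a2. Grin1, the obligatory subunit of NMDA receptors, had 708 and 733 CPM in WT and 757 and 917 in the Fmr1 knockout. Map1b, a classic FMRP ligand, had 2910 and 3088 CPM in WT and 2869 and 2689 in the knockout, both below WT (log2 difference -0.11, adjusted p = 0.963, edgeR), and Dlg4 had 259 and 243 against 255 and 257. In RNA the same 109 genes had a median of -0.14, with 14 above 0, so their RNA and footprint medians differed in sign. The RNA median of all genes was 0.025.

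Synaptic genes gave 0 calls against WT as well. Of 25 postsynaptic density scaffolds 18 had a log2 difference above 0 in footprints (median 0.066, 0 called). Their RNA median was -0.33, beside 0.025 for all genes. Shank3 footprints were at 60.1 and 60.0 CPM in WT and 66.4 and 73.1 in the Fmr1 knockout (log2 difference 0.21, adjusted p = 0.947, edgeR), against an RNA difference of -0.81. Of 36 glutamate and GABA receptor subunits 21 were above 0 in the Fmr1 knockout against WT (median 0.028; 0 called). In the double against the Cpeb1 knockout their median was -0.25 and 8 were called, all lower, among them Gabrb2, beside 2.61% of all genes called lower in that comparison, whose calls depended on each library as given above. The metabotropic receptor gene Grm5, central to models of fragile X, had 183 and 186 CPM in WT and 169 and 200 in the Fmr1 knockout. Immediate-early genes, which report recent neuronal activity, gave opposite signs in the replicates: the median over 24 genes was 0.42 in replicate 1 and -0.16 in replicate 2. Their summed level was 1846 and 2544 CPM in WT and 2533 and 2253 in the Fmr1 knockout. The activity-regulated transcription factor Jun was the gene of this list with the smallest p, at 102 and 108 CPM in WT and 83.3 and 74.3 in the Fmr1 knockout (log2 difference -0.41, adjusted p = 0.689, edgeR).

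Oligodendrocytes, the myelinating glial cells, had lower marker footprints in the Fmr1 knockout, below the level of a call. Of 16 markers 0 were called (edgeR), while 14 had a log2 difference below 0, and 8 (50.0%) had an unadjusted p under 0.05 and were lower, beside 2.69% of all genes. The list median was -0.16, and the replicates gave -0.17 and -0.21. Both Fmr1 knockout libraries were below both WT libraries for 9 of the 16, beside 15.1% of all genes, among them Mog, Mag, Cnp, Cldn11, Opalin, Ugt8a, Olig1 and Mal. In footprints of bulk cortex, fewer oligodendrocytes, less RNA per cell and fewer ribosomes on each mRNA copy cannot be told apart.

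Mog, a myelin surface glycoprotein, was at 58.5 and 64.2 CPM in WT and 39.0 and 46.0 in the Fmr1 knockout (log2 difference -0.53 ± 0.099, adjusted p = 0.153, edgeR). Mal, a raft protein of myelin, lies on chromosome 2 in the stretch from 110 to 130 Mb described below. It was at 101 and 108 CPM in WT against 73.6 and 85.8 in the Fmr1 knockout. Mbp, the myelin basic protein gene, did not share this, at 382 and 349 CPM in WT and 402 and 336 in the knockout, and the progenitor markers Pdgfra and Cspg4 had log2 differences of 0.050 and -0.027. Summed over the 16 markers, the level was 4127 and 4328 CPM in WT and 3544 and 3545 in the Fmr1 knockout, with no overlap. In RNA the list median was -0.15, with 5 of 16 above 0, beside a median of 0.025 for all genes. In the double against the Cpeb1 knockout the median was -0.076, 6 of 16 were above 0, and 2 were called lower, among them Ugt8a (log2 change -0.71), beside 2.61% of all genes. The list median lay between -0.25 (without WT replicate 1) and -0.15 (without WT replicate 2) when any 1 of the 4 libraries was left out.

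**Figure D4:**
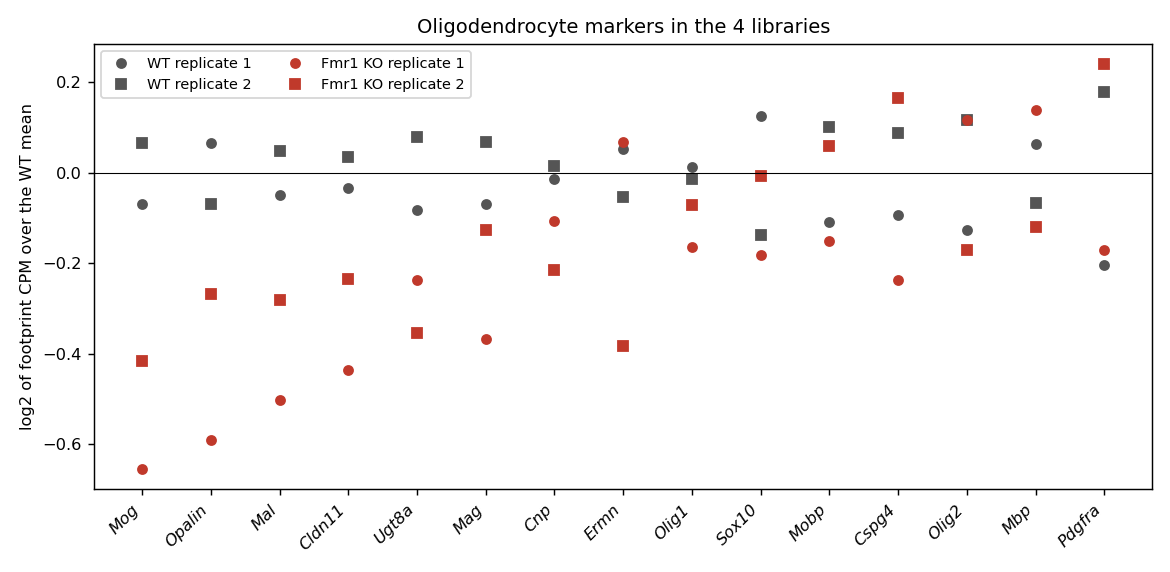
Log2 of the footprint CPM over the WT mean (vertical axis) for 15 of the 16 oligodendrocyte markers (horizontal axis, ordered by fitted change) in the 2 WT (grey) and 2 Fmr1 knockout (red) libraries, circles for replicate 1 and squares for replicate 2. From Mog to Cnp both knockout libraries lie below both WT libraries, and from Sox10 to Pdgfra the genotypes overlap.

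Markers of other cell types gave 0 calls. Excitatory neuron markers had 6 of 12 above 0 and a median of 0.011, and Camk2a at 2282 and 1988 CPM in WT and 2205 and 2478 in the Fmr1 knockout. Interneuron markers had 9 of 14 above 0 (median 0.080). Among them Cort and Npy were higher and Pvalb, the calcium buffer of fast-spiking cells, was lower at an unadjusted p under 0.05. Pvalb was at 76.2 and 69.0 CPM in WT and 62.9 and 51.3 in the knockout (log2 difference -0.35, adjusted p = 0.888, edgeR). Of 12 astrocyte markers 3 were above 0 (median -0.037, which became 0.022 without Fmr1 knockout replicate 2). Of 12 microglia markers 11 were above 0 (median 0.26), with medians of -0.0099 and 0.30 in the replicates, summed levels of 85.1 and 103 CPM in WT and 88.5 and 119 in the Fmr1 knockout, and 0 at an unadjusted p under 0.05. Endothelial and mural markers had 4 of 11 above 0.

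Markers of choroid plexus, ependyma and red blood cells differed between libraries, for a cause that was not tested. The 10 choroid plexus and ependyma markers, of which 8 were tested, summed to 33.1 and 33.7 CPM in WT and 29.4 and 142 in the Fmr1 knockout. Their median log2 difference was 0.63, and 4 of the 8 were higher at an unadjusted p under 0.05. Ttr, their most abundant member, was at 18.8 and 20.6 CPM in WT and 16.4 and 117 in the knockout. Of these 4 libraries only Fmr1 knockout replicate 2 was high. Ttr was also above WT in the Cpeb1 knockout (48.3 and 138 CPM) and the double knockout (57.0 and 41.1). The haemoglobin gene Hba-a2 was at 3.67 and 21.4 CPM in WT and 5.21 and 5.34 in the knockout, with WT replicate 2 the high library. The part of these differences in the other results was not tested, beyond the counts without each library given above.

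**Figure D5:**
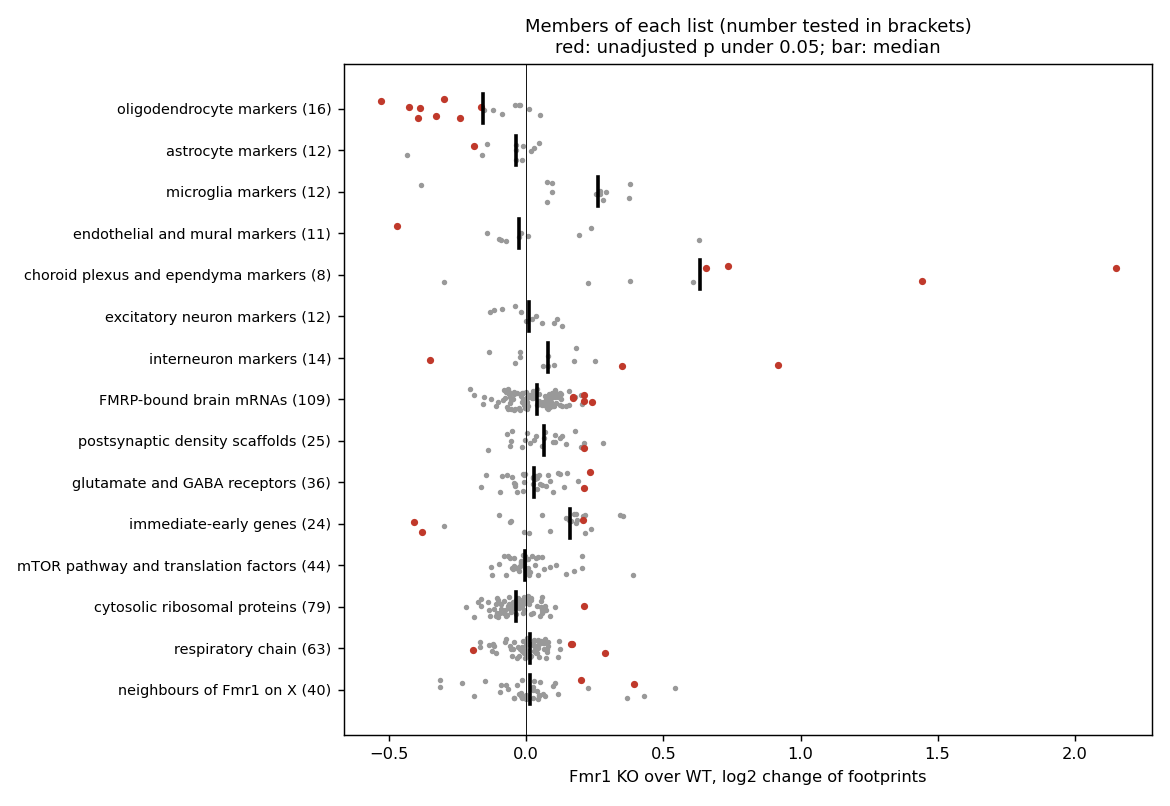
Log2 footprint change of the Fmr1 knockout over WT (horizontal axis) for every tested member of 15 gene lists (rows, number tested in brackets), red where the unadjusted p is under 0.05, with a bar at the median. The oligodendrocyte list has its median at -0.16 and the choroid plexus list at 0.63, and the lists of FMRP-bound mRNAs, receptors, translation factors and ribosomal proteins lie close to 0.

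The translation machinery gave 0 calls in footprints. Of 44 genes of the mTOR pathway and translation factors 18 had a log2 difference above 0, 0 were called and 0 had an unadjusted p under 0.05. Mtor itself was at 248 and 237 CPM in WT and 245 and 255 in the Fmr1 knockout, and the cap-binding factor gene Eif4e at 113 and 112 against 119 and 112. Cytosolic ribosomal protein genes, of which 79 of 83 were tested, had a footprint median of -0.037, with 23 above 0. This median was 0.051 in replicate 1 and -0.16 in replicate 2, and it became 0.027 without Fmr1 knockout replicate 2 and 0.036 without WT replicate 2. In RNA the same genes had a median of 0.34, with 79 of 79 above 0. Over all genes the RNA median was 0.025, with 7102 of 13027 above 0. Genes of the respiratory chain had a footprint median of 0.014, which became -0.00038 without Fmr1 knockout replicate 1, and 36 of 63 above 0, beside an RNA median of 0.18.

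Few other members of the called genes' families had a low p. Of the 15 tested genes of N-acyl lipid and endocannabinoid metabolism, Pla2g4e was called and Gdpd1 alone among the rest had an unadjusted p under 0.05 (40.5 and 49.0 CPM in WT, 51.4 and 54.6 in the Fmr1 knockout). The cannabinoid receptor gene Cnr1 was at 133 and 127 CPM in WT and 135 and 144 in the knockout. Of 20 genes of methionine salvage and the methyl cycle Adi1 was called and none of the rest had an unadjusted p under 0.05; 14 were below 0. Of 26 genes of axonemal dyneins and cilia Dnah6 was called, and 17 were below 0 with a median of -0.14. Cfap43 and Rsph3a, also on that list, had an unadjusted p under 0.05 with positive differences of 1.54 and 0.57.

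Genes with an unadjusted p under 0.05 were unevenly spread over the genome. Chromosome 2 held the largest share of the chromosomes, 90 of 1095 tested genes (8.22%), and 2 of the 8 called genes, Pla2g4e and B2m. In the stretch of chromosome 2 from 110 to 130 Mb, chosen after its values were seen, 27 of 162 tested genes (16.7%) had such a p, 14 higher and 13 lower. It holds Scg5 and the oligodendrocyte marker Mal. It also holds Capn3, a muscle-type calpain near Pla2g4e, at 5.67 and 7.42 CPM in WT and 3.32 and 2.76 in the Fmr1 knockout. Kcnip3, a calcium-binding partner of potassium channels, also lies there, at 98 and 89.1 CPM in WT and 65.8 and 76.5 in the knockout. In the Cpeb1 and double knockouts Capn3 lay between 1.71 and 2.34 CPM and Kcnip3 between 65.7 and 72.6, so WT was the high genotype for both. The labels give every group the same strain and do not state whether the WT mice came from the colony of the knockouts. Chromosome 12 held similar stretches, also chosen after their values were seen. Such a p was found for 6 of 26 tested genes (23.1%) from 10 to 20 Mb and 4 of 26 (15.4%) from 20 to 30 Mb. The second of these holds the called gene Adi1 and Kidins220, both counted among its 4. Stretches with 0 calls also had such shares. Among them were 6 of 31 (19.4%) on chromosome 4 from 10 to 20 Mb and 5 of 26 (19.2%) on chromosome 2 from 80 to 90 Mb. Chromosome 17 from 0 to 10 Mb had 4 of 25 (16%), and chromosome 19 from 10 to 20 Mb 8 of 52 (15.4%). The called genes Pla2g4e, B2m and Adi1 lie in the stretches chosen above. Whether those stretches exceed the scatter among all stretches was not tested, nor was a cause.

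Around Fmr1 itself, 21 of the 40 nearest tested genes had a log2 difference above 0, with a median of 0.016. Ids and Cd99l2 had an unadjusted p under 0.05, and Cd99l2, a cell adhesion gene, was at 34.8 and 37.9 CPM in WT and 47.0 and 48.4 in the Fmr1 knockout (log2 difference 0.39, adjusted p = 0.285, edgeR). With Cpeb1 absent its difference was 0.078. In the stretch of the X chromosome from 70 to 80 Mb, chosen after its values were seen, 11 of 69 tested genes (15.9%) had an unadjusted p under 0.05. Of these 8 were higher, and the share over all genes was 5.09%. Ids and Cd99l2 are counted here again, and Pls3 is also among the 11.

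Several of the largest differences rested on 1 library. Of 121 genes with a log2 difference over 1 in size, 12 had a mean of at least 5 CPM, and 3 of these were called (Fmr1, Pla2g4e and Dnah6). The kinase gene Tlk1 was at 48.4 and 2.63 CPM in WT and 55.2 and 48.5 in the Fmr1 knockout, and the tubulin gene Tuba1c at 92.2 and 0.14 against 91.6 and 101. In both, WT replicate 2 alone of these 4 libraries was low. Tuba1c has near-identical paralogs, between which the assignment of footprints is uncertain. Abhd1, a hydrolase gene, was the most even of those not called, at 12.1 and 12.8 CPM in WT and 5.42 and 6.35 in the knockout (log2 difference -1.08 ± 0.215, adjusted p = 0.197, edgeR).

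Length of the coding sequence did not order the footprint changes. Over 5 bins of genes from the shortest to the longest the median log2 difference was -0.0014, 0.011, 0.013, 0.014 and -0.013. The RNA medians of the same bins were 0.13, 0.062, 0.027, -0.0072 and -0.077, which descend with length. The RNA medians of the gene lists above were not adjusted for length.

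The authors' deposited table of this comparison called 23 genes, 7 higher and 16 lower. All 23 genes called in the authors' deposited table had the same sign here, and 5 were also called here: Fmr1, Pla2g4e, Adi1, B2m and Rint1. Both fits are of the same footprint comparison, so the shared signs are not independent support. In the authors' deposited table Gm5150, Rec8 and Dnah6 carry no adjusted p. The authors' deposited table also called the oligodendrocyte genes Mog and Mal, along with Tspan2, the iron carrier Trf and the lipid carrier Apod, each of them lower. In the fit made here Trf was at 175 and 168 CPM in WT and 113 and 141 in the Fmr1 knockout, and Apod at 85.7 and 93.0 against 61.6 and 70.2 (adjusted p = 0.333 and 0.243, edgeR). Both were called lower in the double against the Cpeb1 knockout (adjusted p = 0.0240 and 0.0172, edgeR).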

How the data were processed

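Footprint and RNA libraries of mouse cortex were analysed from gene tables, 1 per library, that per the file headers hold RSEM's expected counts (estimated counts per gene). The authors deposited these expected counts unscaled. The submitters' processing notes name cutadapt, Bowtie2, TopHat2, RSEM, DESeq2 and the build mm10, without role or version. The authors' deposited DESeq2 table gives log2 changes and adjusted p-values per gene. Which filters on reads were applied is not given in the sources used here.

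Groups came from the titles. Expected counts were rounded to whole numbers and fitted with edgeR 4.0.16 in R 4.3.3 (TMM scaling, filterByExpr with minimum count 10, glmQLFit and glmQLFTest), with all 8 libraries of an assay in 1 fit and the replicate number as a block, an assumption, since the labels name no batch. Footprints relative to RNA were an interaction in a fit of all 16 libraries. Benjamini-Hochberg adjusted p under 0.05 counted as called. Standard errors were derived from the quasi-F statistic. DESeq2 1.42.0 was an alternative, beside RLE scaling, other filters, no block, the 2 genotypes alone and leaving out each library. Changes per replicate used log2 CPM with a prior count of 2. The steps were tested on simulated data of this comparison with 13754 genes. Of 66 genes changed by a log2 of 0.5, 53.0% were called, of 67 changed by 1, 79.1%, and of 67 changed by 2, 98.5%. Of 13554 unchanged genes 4 were called. The simulation gave each gene 1 mean and the spread usual for its level, with no replicate effects or single outlying libraries. Its results may therefore be more favourable than those of the real libraries.

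Positions are those of RefSeq genes on GRCm38.p6, matched by transcript accession for 13766 of the tested genes. Named genes were Fmr1 and Cpeb1; every called gene; the 8 higher and 8 lower genes with the smallest unadjusted p among those not called, with a mean of at least 200 counts, the same direction in both replicates and no provisional symbol; of each list the 2 genes with the smallest p and that with the highest level per kb; and family members of called genes. Other genes were named after their values were seen. The members and lists were chosen with earlier results of these data known. Results on some named genes are not reported here. List members were counted and not tested as sets.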

Additional observations from a re-analysis of the deposited data

Results flagged for a closer look

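For 9 genes the effect of Fmr1 loss on footprints differed between libraries with and without Cpeb1, by the test of that difference itself (edgeR, adjusted p under 0.05). The values are the log2 change of the double knockout over the Cpeb1 knockout minus that of the Fmr1 knockout over WT. They were -2.38 for Pla2g4e, -6.96 for Gm5150, -6.18 for Rec8 and 1.44 for Adi1, all called against WT in libraries that this test shares. Kidins220 had -0.66, with opposite signs in the 2 settings.

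The other 4 genes were not called in the Fmr1 knockout against WT and were called where Cpeb1 was absent. Hist4h4, a histone H4 gene that shares sequence with other copies, had 1.42, with 30.7 and 29.0 CPM in WT against 20.7 and 24 without Fmr1, and with Cpeb1 absent 24.8 and 25.4 against 45.6 and 55.1. Nrgn, the postsynaptic calmodulin-binding protein neurogranin, had 0.82, with 607 and 703, 599 and 584, 514 and 670, and 888 and 996 CPM in the same order of genotypes. Ctxn1, a small membrane protein of cortical neurons, had 0.82 as well, and Rdx, the membrane-to-actin linker radixin, -0.75. For Hist4h4 and Nrgn the double knockout libraries were above all others.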

How the results depend on the processing

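Calls in footprints of the Fmr1 knockout against WT numbered 8, and 15 with DESeq2, 16 with no filter on low counts, 43 with the 2 genotypes only and 5 to 46 when 1 library was left out. Without the replicate block there were 6, without Rec8 and Dnah6. With at least 10 counts in every library there were also 6, as Gm5150 and Rec8 were not tested. Leaving out an Fmr1 knockout library leaves that genotype 1 library, assumed to vary like the other genotypes. Double against Cpeb1 knockout gave 772 calls, 207 without the replicate block, 1701 with the 2 genotypes only and 5 to 81 with 1 library left out. The difference between both settings gave 9 calls, 5 without the block, 75 with DESeq2, 33 with no filter, 5 with at least 10 counts in every library and 6 to 428 with 1 library left out (428 without WT replicate 2, 28 without WT replicate 1). RNA gave 1 call, 3 with no filter, 401 with the 2 genotypes only and 1 to 2 with 1 library left out. In DESeq2 the RNA call was Bai2, because Fmr1 (unadjusted p = 4.25e-34) received no adjusted p there. Footprints relative to RNA gave 2 calls, 0 without the block and 0 to 3 with 1 library left out. For the 24 genes first named, 0 changes reversed over these alternatives; 10 calls were lost and 24 gained.

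List medians without each library were added after seeing the data. Their range was -0.13 to 0.036 for ribosomal proteins (above 0 at 0.027 and 0.036 without Fmr1 knockout replicate 2 and WT replicate 2), -0.00038 to 0.029 for the respiratory chain (below 0 without Fmr1 knockout replicate 1) 0.0047 to 0.076 for FMRP-bound mRNAs and -0.13 to 0.022 for astrocyte markers (above 0 without Fmr1 knockout replicate 2). The causes were not tested. The numbers are not shown to pair the samples: deviations of same-numbered WT and Fmr1 knockout footprint libraries correlated at -0.034, and pairs of genotypes ranged from -0.075 to 0.33.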
